A study of Rattus norvegicus with 12 samples.

Results

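The 212 genes described here are the expressed Zfp genes of rat lung. They were chosen by name (Zfp, a number and at most a letter with a further number) and by a mean level of at least 1 FPKM (reads scaled by gene length and by library total) over the 6 control libraries. Of 23096 genes in the table, 282 lines carried such a name and 212 met the threshold. All 212 passed the filter on low counts. Of the 70 lines left out, 44 passed that filter and 26 did not, and 9 of the 282 lines had 0 counts in every library. The control levels that chose the members are one side of the comparison made below, so counts and medians over the members are a description. The members nearest above the threshold were Zfp938 and Zfp574, at control means of 1.04 ± 0.323 and 1.04 ± 0.154 FPKM (SD, n = 6). The names nearest below it were Zfp583 and Zfp78, at 0.934 ± 0.145 and 0.923 ± 0.0404 FPKM.

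A zinc finger is a short protein fold held together by a zinc ion. In the C2H2 class, a pair of cysteines and a pair of histidines hold the ion, and strings of such fingers read DNA sequence. Many C2H2 proteins of rodents also carry a KRAB domain, which recruits the corepressor Trim28 and, through it, enzymes and readers of repressive histone methylation; much of this machinery silences transposable elements. The Zfp name is not one function: Zfp36, Zfp36l1 and Zfp36l2 have fingers of the CCCH type and bind AU-rich messenger RNA, which they mark for decay.

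Lung tissue with bronchi came from male-labelled Sprague Dawley rats aged 8 weeks at 300 g. The control group, 6 libraries, came from rats given aseptic distilled water into the trachea. The DA group, 6 libraries, came from rats given 2,3-butanedione (diacetyl, a butter flavouring linked to scarring of small airways) by the same route, at 125 mg/kg each day over 7 days, and lungs were collected 24 h later. The question addressed here was whether the levels of the Zfp messenger RNAs differed between the groups. Read totals were 13723207 to 16271842 per library, with 16579 to 17354 genes detected. The 6 lung markers examined, surfactant genes among them, were all present and 0 changed; their summed level was 21561 to 29334 counts scaled to library size (CPM) in control and 11084 to 35592 in DA. Other marker lists moved. Of 5 fibroblast markers 4 rose and 1 fell, and 2 of 4 ciliated cell markers and 3 of 3 tested heart muscle markers rose. Of the markers of mast cells 3 of 4 fell, and of T and NK cells 2 of 5. Among the heart muscle markers only Actc1 had separate groups. Tnnt2 and Tnni3 overlapped control, with DA medians of 0.332 and 1.16 FPKM and maxima of 15.6 and 46.1. Summed CPM ran from 1401 to 2564 in control and 2793 to 6592 in DA for fibroblasts, 24.01 to 62.8 and 52.0 to 327 for ciliated cells, 10.3 to 24.95 and 32.6 to 724 for heart muscle, 12.7 to 44.2 and 5.46 to 7.25 for mast cells, and 89.8 to 190.3 and 43.8 to 126 for T and NK cells. No marker of these lists was at 0 in every library, and their part in the Zfp results was not tested. Against the label, 6 of the 12 libraries held at most 9 reads of Y-linked genes (control replicates 3 to 6, DA replicates 5 and 6), while the other 6 held 2189 to 2884. The groups are unequal in this respect, so results are also given within each of these sets. In whole tissue, fewer cells of a type and less RNA per cell cannot be told apart.

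Most of the Zfp genes were transcribed at low levels. Their control means ran from 1.04 to 122 FPKM with a median of 2.95. The median was 6.59 over other genes at the same threshold of 1 FPKM, and 5.12 over all 14517 tested genes. The CCCH genes stood at the top: Zfp36l1 at 122 ± 12.2, Zfp36 at 111 ± 32.1 and Zfp36l2 at 94.5 ± 4.79 FPKM (SD, n = 6). The first and last of these differed by more than their spread, while Zfp36 overlapped both. Far below them came Zfp106 at 32.4 ± 6.72 and Zfp503 at 28.7 ± 8.84 FPKM. The members together took 0.776 ± 0.0295% of all reads in control and 0.693 ± 0.039% in DA (SD, n = 6), a share that overlapped between the groups (0.732 to 0.819% against 0.652 to 0.746%).

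Most of the Zfp genes that passed the test were lower in the DA lungs. Of the 212 members, 22 fell and 5 rose, and 185 did not pass (edgeR quasi-likelihood test, threshold 0.05 on p adjusted over all 14517 genes). The members' share was 10.4% lower and 2.36% higher, against a background of 7.51% of all tested genes lower and 8.45% higher. The share that fell lay near the background, and the share that rose lay below it. The median log2 fold change of the members was -0.05 (middle 50% of genes, -0.25 to 0.10), beside 0.03 (-0.23 to 0.31) over all tested genes. A fold of 1.5 or more in either direction, called or not, was seen in 12 members (5.66%) and in 20.6% of all tested genes. Among other genes with a control level of at least 1 FPKM it was seen in 16.6%. Separate control and DA ranges were seen for 9 members lower in DA (4.25%, background 2.66%) and for 1 higher (0.472%, background 3.22%). With the upper quartile in place of TMM for scaling, 16 members were lower and 7 higher. These were 7.55% and 3.30%, against 5.88% and 11.4% of all tested genes. In limma on log2(FPKM + 0.5), 22 members were lower and 2 higher (10.4% and 0.943%, against 6.85% and 6.62% of all tested genes). Without DA replicate 1 the calls were 14 lower and 2 higher (6.60% and 0.943%), and those of all tested genes dropped to 4.02% and 4.17%. The 5 rises shrank to between 1 and 3 without any of control replicates 1 to 6 or DA replicates 5 or 6. In these fits 3.94 to 9.13% of all tested genes were higher.

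Comparable genes moved more widely. The 5716 other genes whose length (2397 to 15690 bases) and control level (1.37 to 13.8 FPKM) lay between the 10th and 90th percentiles of the members had a median log2 fold change of 0.02 and a standard deviation of fold changes of 0.44, against 0.31 for the members. Of these genes 7.89% rose and 7.70% fell, and 13.8% were past a fold of 1.5. The 137 members inside the same ranges counted 4 risen and 10 fallen (2.92% and 7.30%), with a median of -0.03. The median standard error (log2) was 0.13 for the members and 0.15 for the comparable genes. The comparable genes had the higher median control level, 5.01 FPKM against 2.95. By the members' tertiles of control level, from bottom to top, the median standard error of the members was 0.16, 0.13 and 0.12. For other genes in the same level ranges it was 0.22, 0.16 and 0.13. Variation within a group was slightly smaller as well: the median coefficient of variation of FPKM was 12.7% in control and 16.3% in DA for the members, and 13.3% and 20.4% for the comparable genes. Length and level were each cut at the members' tertiles into 9 cells. The members' share of rises was below that of the other genes in 9 cells. Their median was below in 7, and their share of falls was above in 5. In the longest tertile the members' median was above that of the others at middle level (-0.03 against -0.09) and top level (-0.13 against -0.14). By length alone, from short to long, 9 of 71, 7 of 70 and 6 of 71 members fell and 1, 1 and 3 rose. The members' medians were -0.14, -0.02 and -0.03. Of other genes, 6.69%, 8.17% and 13.8% fell and 9.16%, 7.67% and 5.01% rose (medians 0.06, 0.01 and -0.10).

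**Figure D1:**
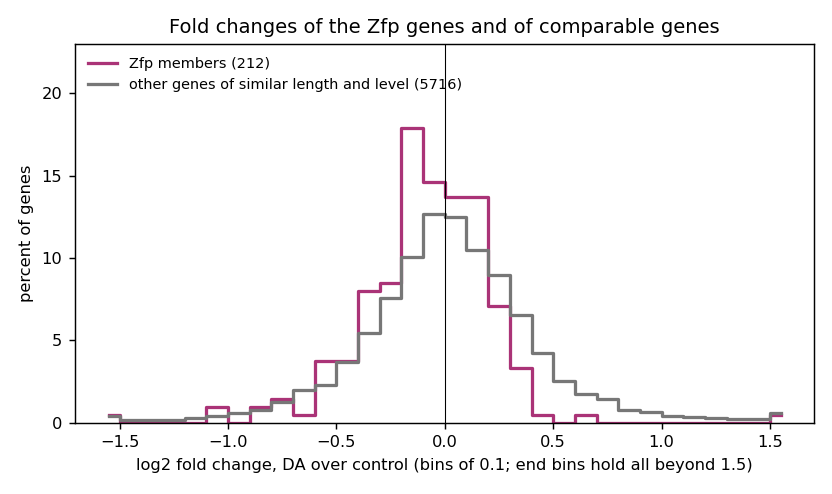
Percent of genes (vertical axis) in bins of log2 fold change, DA over control (horizontal axis), for the 212 Zfp genes and the 5716 other genes of similar length and control level. The Zfp curve is narrower and has few genes to the right of 0.5, and its median is -0.05 against 0.02.

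Within the family, falls sat among the better expressed members. Of the 71 members of the top tertile of control level (4.92 FPKM and above), 15 fell and 0 rose, with a median log2 fold change of -0.17. In the middle tertile 5 of 70 fell and 2 rose (median -0.03), and in the bottom tertile 2 of 71 fell and 3 rose (median 0.02). Other genes in the same level ranges showed the same order, with 11.4%, 6.96% and 4.06% lower and medians of -0.03, 0.02 and 0.13. The standard errors were smaller at high level (median 0.12 against 0.16 in the bottom tertile); their part in this order was not tested. By RefSeq gene order (GRCr8), 88 of the 203 members that could be matched had another Zfp, Znf, Zscan or Zkscan gene as a direct neighbour. Of these, 10 fell (11.4%) and 1 rose (1.14%), with a median of -0.02. Of the 115 without such a neighbour, 12 fell (10.4%) and 4 rose (3.48%), with a median of -0.12. Over all tested genes 7.51% fell and 8.45% rose. Members with such a neighbour had a lower median control level (2.50 against 3.78 FPKM) and length (5214 against 6640 bases). The part of level and length in these medians was not tested. Neighbouring zinc finger genes that carry no name were not recognised.

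Other zinc finger families at the same level threshold are given side by side. Of 32 Zbtb genes, which pair fingers with a BTB domain, 8 fell and 1 rose (median log2 fold change -0.14). Of 13 Klf genes, 5 fell and 0 rose, with a median of -0.47 and 13 of 13 below 0. Of 13 Zscan and Zkscan genes 1 fell and 0 rose (median -0.14), and of 4 Znf genes 0 changed (median -0.14). Of 18 Zc3h genes, which carry CCCH fingers, 4 fell and 1 rose (median 0.01). Over all tested genes 7.51% fell and 8.45% rose. The families also differed in level, with a median control mean of 24.4 FPKM for Klf, 6.99 for Zc3h and 5.37 for Znf. It was 4.53 for Zscan and Zkscan, 3.98 for Zbtb and 2.95 for the members. The part of level in these counts was not tested, and no test of the difference between families was made.

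Among the called members the 4 with the largest falls were Zfp697, Zfp366, Zfp106 and Zfp394, and in each of them every DA library lay below every control library. Zfp367 rose most. RefSeq promoter sequences (GRCr8, 250 bases before to 50 after the annotated start) are shown for the members of these 5 that have one, since they are the genes the result turns on; Zfp394 had no entry. Capitals mark 3 searched motifs on either strand, the E2F type TTTCCCGC or TTTGGCGC, the ETS type CCGGAAGT and the CCAAT box. None of the marked motifs overlap.
Zfp697, chr2:188659044-188659343, + strand: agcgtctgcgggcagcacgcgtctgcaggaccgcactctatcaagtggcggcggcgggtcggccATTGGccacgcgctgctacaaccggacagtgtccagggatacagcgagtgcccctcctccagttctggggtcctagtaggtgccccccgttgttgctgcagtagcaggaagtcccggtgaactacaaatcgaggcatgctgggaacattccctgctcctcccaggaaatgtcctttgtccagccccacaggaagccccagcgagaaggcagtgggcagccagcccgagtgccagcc
Zfp366, chr2:32312462-32312761, + strand: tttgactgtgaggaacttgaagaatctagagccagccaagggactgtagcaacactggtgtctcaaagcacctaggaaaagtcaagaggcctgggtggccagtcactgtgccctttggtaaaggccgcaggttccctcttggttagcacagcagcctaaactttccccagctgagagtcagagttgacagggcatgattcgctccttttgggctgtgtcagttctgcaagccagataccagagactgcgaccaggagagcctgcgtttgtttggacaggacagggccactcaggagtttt
Zfp106, chr3:127964205-127964504, - strand: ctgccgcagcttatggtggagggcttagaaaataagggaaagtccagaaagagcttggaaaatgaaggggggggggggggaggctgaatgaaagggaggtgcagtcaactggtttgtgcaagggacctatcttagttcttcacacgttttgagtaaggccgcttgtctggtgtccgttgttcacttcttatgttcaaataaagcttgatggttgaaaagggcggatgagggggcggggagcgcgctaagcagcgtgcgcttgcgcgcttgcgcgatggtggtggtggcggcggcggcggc
Zfp367, chr17:970646-970945, + strand: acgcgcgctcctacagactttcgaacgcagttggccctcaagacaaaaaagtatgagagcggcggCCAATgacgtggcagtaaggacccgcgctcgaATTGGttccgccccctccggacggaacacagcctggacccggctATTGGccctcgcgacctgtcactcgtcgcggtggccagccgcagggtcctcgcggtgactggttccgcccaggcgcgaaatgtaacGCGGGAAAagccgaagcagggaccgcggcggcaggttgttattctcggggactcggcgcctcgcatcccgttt
These promoters differ in CpG content, the step at which DNA methylation acts: Zfp366 holds 4 CpG steps, Zfp697 and Zfp106 hold 18 each and Zfp367 holds 37. The Zfp367 window has 3 CCAAT boxes and 1 E2F-type motif, the Zfp697 window has 1 CCAAT box, and the other windows have no match. Of 27455 RefSeq promoters of this length, 1.53% hold the E2F type, 4.01% the ETS type and 37.7% a CCAAT box. A match is a description of letters, not of a bound site. Composition was not summarised over the family, since 167 of the 209 names (79.9%) matched a promoter, under the 80% needed.

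Zfp697 (ENSRNOG00000065357) fell the most. Its FPKM ran from 8.81 to 22.6 in control (median 14.2) and from 2.47 to 8.33 in DA (median 4.70), a log2 fold change of -1.60 ± 0.32 (SE; adjusted p = 0.00919). The groups nearly met, through control replicates 1 and 2 (8.81 and 9.37) and DA replicate 2 (8.33). These controls hold Y-linked reads, and the log2 fold change was -0.71 within the libraries with such reads and -2.20 within those without. They also stood apart in the score of clock genes, at -1.92 and -2.98 against 0.26 to 2.31 in control replicates 3 to 6 and -0.74 to 0.19 in DA; with that score as a term Zfp697 remained called (adjusted p = 0.0152). The difference between these sets did not pass the test of interaction (adjusted p = 0.592). With the cell cycle score of each library as a term the log2 fold change was -1.31 (adjusted p = 0.0771). That score is the mean of 6 marker genes, of which 4 were called higher in DA. It ran from -1.44 to -0.11 in control and from -0.47 to 2.24 in DA. Such a term therefore also takes up part of the difference between the groups.

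Zfp366 (ENSRNOG00000017249) encodes DC-SCRIPT, a corepressor of nuclear receptors best known from dendritic cells. Its control values ran from 8.75 to 12.2 FPKM (median 9.30) and its DA values from 3.93 to 6.64 (median 4.42), a log2 fold change of -1.06 ± 0.14 (adjusted p = 0.00292). The drop was of like size in both sets of libraries, -1.18 without and -0.93 with Y-linked reads. Of the 5 endothelial markers examined, 1 fell (Tek, -1.17, adjusted p = 0.0251) and 0 rose; their summed level ran from 3082 to 4564 CPM in control and 1107 to 4391 in DA, none was at 0, and their part in the result was not tested.

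Zfp106 (ENSRNOG00000052583), an RNA-binding protein that mice need to keep motor neurons and muscle intact, is the most abundant Zfp gene with a fold above 1.5. It ran from 25.9 to 43.9 FPKM in control (median 31.8) and from 10.6 to 21.6 in DA (median 16.2), a log2 fold change of -1.03 ± 0.18 (adjusted p = 0.0055). Zfp394 (ENSRNOG00000000983), known in human cells as a repressor of AP-1 activity, ran from 6.60 to 9.02 in control (median 8.31) and from 4.32 to 5.43 in DA (median 4.56), at -0.79 ± 0.12 (adjusted p = 0.00313). Its groups were tight and well apart. Both falls were present without and with Y-linked reads (Zfp106, -1.29 and -0.74; Zfp394, -0.86 and -0.66).

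**Figure D2:**
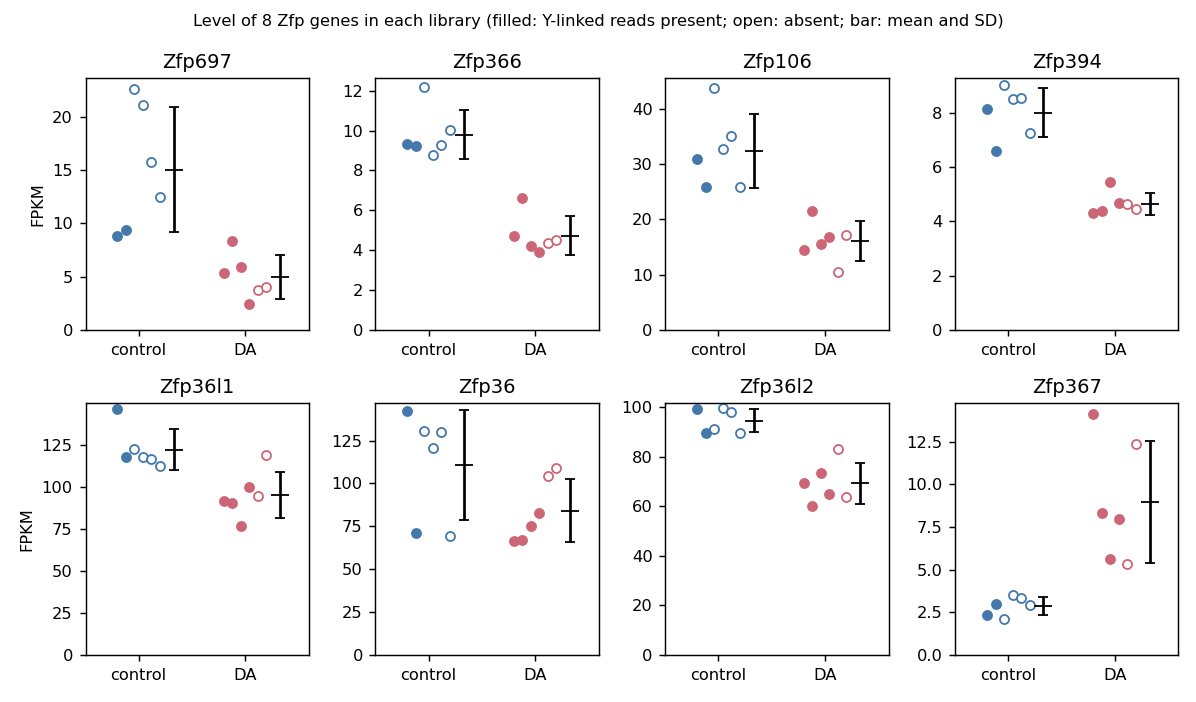
FPKM (vertical axes, from 0) of 8 Zfp genes in the 6 control and 6 DA libraries, one point per library, with the mean and SD beside each group; filled points are libraries with Y-linked reads. In Zfp697, Zfp366, Zfp106, Zfp394 and Zfp36l2 every DA point lies below every control point, in Zfp367 every DA point lies above, and in Zfp36 and Zfp36l1 the groups overlap.

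Smaller falls completed the 10 lowest called members. Zfp764 fell by 0.76 on the log2 scale (adjusted p = 0.0161) and Zfp236 by 0.59 (adjusted p = 0.0106). Zfp236 is 44607 bases long, above the length range of the comparable genes. With the length trend removed it was at -0.37 and remained called (adjusted p = 0.0342). Zfp467, which steers mesenchymal precursors towards fat or bone in mice, fell by 0.58 (adjusted p = 0.0202). Zfp217, the counterpart of a human breast cancer oncogene, fell by 0.54 (adjusted p = 0.0193), although DA replicate 4, at 15.2 FPKM, lay above all 6 controls (12.7 to 14.9) while the other DA libraries stood at 7.66 to 9.89. Zfp235 (-0.72, adjusted p = 0.0421) and Zfp316 (-0.58, adjusted p = 0.0238) fell as well. With the cell cycle score as a term, Zfp236 and Zfp217 remained called, while Zfp764 (-0.73, adjusted p = 0.0847), Zfp467 (-0.29, adjusted p = 0.257), Zfp235 (-0.52, adjusted p = 0.257) and Zfp316 (-0.43, adjusted p = 0.191) did not. Within the libraries without Y-linked reads Zfp467 was at -0.45 and was not called (adjusted p = 0.199). Neither were Zfp235 (-0.59, adjusted p = 0.293) and Zfp316 (-0.27, adjusted p = 0.361), while Zfp764, Zfp236 and Zfp217 were called there. In the libraries with such reads Zfp316 was at -0.85. Leaving out 1 library ended the call of Zfp235 in 8 of 12 fits (control replicates 2, 4, 5 and 6 and DA replicates 1, 3, 4 and 6; adjusted p up to 0.0922) and of Zfp316 without control replicate 3 or DA replicate 1 (up to 0.0546). Zfp235 sits near the level threshold, at a control mean of 1.06 FPKM and 24 to 66 reads per library.

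Among the rises, only Zfp367 passed a fold of 1.5 with clearly separate groups. Zfp367 (ENSRNOG00000027234) ran from 2.13 to 3.49 FPKM in control (median 2.96) and from 5.33 to 14.1 in DA (median 8.17), a log2 fold change of 1.64 ± 0.25 (adjusted p = 0.00375). Its highest values were in DA replicates 1 and 6 (14.1 and 12.3), its lowest DA values in replicates 5 and 3 (5.33 and 5.62). The rise was 1.60 without and 1.75 with Y-linked reads. The 6 cell cycle markers rose in 4 cases and fell in 0 (Mcm5, a replication gene, by 1.68, adjusted p = 0.0181; Cdk1, a mitotic kinase, by 2.23, adjusted p = 0.0183), with summed levels of 68.3 to 167 CPM in control and 121 to 888 in DA and none at 0. With the cell cycle score as a term Zfp367 remained called at 1.13 (adjusted p = 0.0418).

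The other called rises were small and less stable. Zfp958 rose by 0.65 on the log2 scale (adjusted p = 0.0427), Zfp182 by 0.37 (adjusted p = 0.0494), Zfp317 by 0.34 (adjusted p = 0.0292) and Zfp827, which brings a chromatin remodelling complex to telomeres in human cells, by 0.34 (adjusted p = 0.042). In each of these the groups overlapped. Each lost its call in some of the 12 fits that leave out 1 library: Zfp182 in 11, Zfp958 in 9, Zfp827 in 8 and Zfp317 in 5, at adjusted p up to 0.104, 0.0856, 0.0942 and 0.0665. Zfp182 was kept without DA replicate 3 alone, Zfp958 without control replicate 6 or DA replicate 2 or 3, and Zfp827 without control replicate 1 or 2 or DA replicate 2 or 5, while Zfp317 was lost without control replicates 3 to 6 or DA replicate 6. The name Zfp958 stands on more than 1 line of the table, as it does for 9 members in all, and reads of near-identical copies may be divided between such lines.

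Of the 3 CCCH decay factors, Zfp36l2 and Zfp36l1 fell and Zfp36 did not pass the test. Zfp36l2 ran from 89.7 to 99.5 FPKM in control (median 94.6) and from 60.3 to 83.1 in DA (median 67.3), a log2 fold change of -0.46 ± 0.09 (adjusted p = 0.0094), with no overlap; with the cell cycle score as a term it was -0.38 and not called (adjusted p = 0.0782), and in the libraries without Y-linked reads -0.36 (adjusted p = 0.0947). Zfp36l1 ran from 113 to 146 in control (median 118) and from 76.8 to 119 in DA (median 93.0), at -0.37 ± 0.12 (adjusted p = 0.0475). That call was lost without any single library other than DA replicate 6, at adjusted p up to 0.0925, and its log2 fold change was -0.12 in the libraries without Y-linked reads against -0.57 in those with them. Zfp36 (tristetraprolin) was spread widely in control, from 69.3 to 142 FPKM (median 126), and from 66.7 to 109 in DA (median 79.1); its -0.40 ± 0.21 was not called (adjusted p = 0.199).

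Of the 5 neutrophil markers 3 fell and 0 rose, with summed levels of 318 to 1881 CPM in control and 323 to 638 in DA and none at 0; their part in the Zfp36 values was not tested. Of 30 tested immediate early genes, the class of rapidly induced genes to which Zfp36 belongs, 1 rose and 2 fell (median -0.11): Ccn2 was at 2.27 (adjusted p = 0.00445), Fosl2 at -0.90 (adjusted p = 0.00601) and Mcl1 at -0.66 (adjusted p = 0.00898). Of 27 genes of deadenylation and AU-rich element decay, 3 rose and 1 fell (median -0.08), with the exonuclease gene Xrn1 at -0.48 (adjusted p = 0.018) and the deadenylase gene Cnot7 at 0.29 (adjusted p = 0.0316). Of 21 tested genes with AU-rich transcripts, 4 rose and 0 fell (median 0.53). The cytokine gene Lif was at 1.99 (adjusted p = 0.00429), while Il1b was at -0.79 and not called (adjusted p = 0.308). Over all tested genes 8.45% rose and 7.51% fell. A link between these lists and the levels of the CCCH genes was not tested.

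Most other members with well-known functions did not pass the test. Zfp516, an activator of brown fat genes in mice, fell by 0.45 (adjusted p = 0.0201), and Zfp746 (PARIS), a repressor known from Parkinson's disease models, fell by 0.33 (adjusted p = 0.0366), a call lost in 6 of 12 fits (without control replicates 2 to 6 or DA replicate 1; adjusted p up to 0.0779). With the cell cycle score as a term neither was called (adjusted p = 0.125 for Zfp516 and 0.118 for Zfp746). Zfp746 also lost its call with the length trend removed (-0.24, adjusted p = 0.128). The same held with upper quartile scaling (adjusted p = 0.0692) and in limma on log2(FPKM + 0.5) (adjusted p = 0.0878). DESeq2 kept it. Zfp638 was at -0.32 ± 0.11 and did not pass (adjusted p = 0.0596), although its groups did not overlap (4.73 to 5.61 FPKM against 3.16 to 4.69); DESeq2 called it (adjusted p = 0.0292). Zfp335, at -0.29 ± 0.10, was likewise short of the threshold (adjusted p = 0.0639) and called by DESeq2 (adjusted p = 0.0341). Among these names the smallest differences were those of Zfp91, an E3 ubiquitin ligase (0.00 ± 0.08), and Zfp410, a regulator of the remodeller gene Chd4 (0.01 ± 0.10).

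Zfp57, which guards imprinted genes, was at 0.26 ± 0.20 (adjusted p = 0.383). Zfp598, which senses collided ribosomes, was at -0.18 ± 0.08 (adjusted p = 0.147), and Zfp281, a regulator of stem cell genes, at 0.20 ± 0.14 (adjusted p = 0.33). Within the libraries without Y-linked reads Zfp281 was called higher (0.53, adjusted p = 0.0273), while within those with them it was at -0.07 (adjusted p = 0.935). That difference did not pass the test of interaction (adjusted p = 0.61). None of Zfp148, Zfp292, Zfp451, Zfp462, Zfp521, Zfp622 or Zfp703 passed the test, with log2 fold changes from -0.20 to -0.03. Zfp503 (-0.51 ± 0.25, adjusted p = 0.165) was split within the controls, at 34.5 to 38.5 FPKM in replicates 1 to 3 and 19.0 to 21.7 in replicates 4 to 6, while 5 DA libraries stood at 19.7 to 24.01 and DA replicate 4 at 9.56. Zfp423, which commits precursors to fat in mice, was under the level threshold (0.693 FPKM in control, 0.887 in DA).

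KRAB zinc finger proteins act through corepressors and silencing factors. Of 33 tested genes of this list, 3 rose and 1 fell, with a median log2 fold change of 0.02; over all tested genes 8.45% rose and 7.51% fell. Trim28 itself was at 0.10 ± 0.09 (adjusted p = 0.5) and Setdb1, the histone methyltransferase it recruits, at -0.04 ± 0.12 (adjusted p = 0.844). The genes that rose were Cbx3, a reader of histone methylation (0.50, adjusted p = 0.0123), Rbbp7, a histone chaperone (0.73, adjusted p = 0.0232), and Uhrf1, which maintains DNA methylation in dividing cells (1.70, adjusted p = 0.0415). Gatad2b, of the NuRD complex, fell by 0.47 (adjusted p = 0.0381).

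Across libraries, the mean level of the 212 genes shifted by small amounts. Each gene was put on the log2 scale and centred over the 12 libraries. The mean over the members was 0.05 ± 0.05 in control and -0.05 ± 0.09 in DA (SD, n = 6), and the groups overlapped. DA replicates 4, 1 and 3 stood lowest (-0.17, -0.12 and -0.07), while DA replicates 5 and 2 (0.06 and 0.04) lay among the controls, of which replicate 5 was low (-0.05). The comparable genes stayed between -0.02 and 0.02 in every library. TMM scaling leaves a mean over 5716 genes little room to move, so this is no measure of how unusual the members' shift is. The lowest DA libraries, replicates 4 and 1, had the highest cell cycle scores (2.24 and 1.62). DA replicate 3 had -0.09 and DA replicate 6, with a member mean of -0.03, had 0.92. The control libraries had scores of -1.44 to -0.11. Without DA replicates 1 and 4, a choice made after the values were seen, 15 members were lower and 5 higher (median -0.03). These were 7.08% and 2.36%, against 6.70% and 5.66% of all tested genes. With the cell cycle score as a term, 5 members were lower and 3 higher and their median was 0.02. With that term 2.93% of all tested genes were called lower and 2.06% higher. Because the score differs between the groups, this fit cannot tell the cell cycle and the treatment apart.

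**Figure D3:**
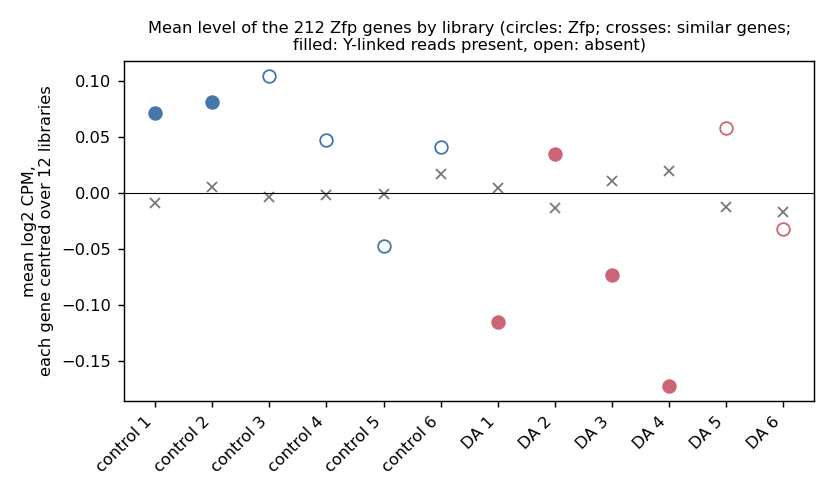
Mean log2 CPM of the 212 Zfp genes (circles) and of the comparable genes (crosses), each gene centred over the 12 libraries (vertical axis), by library (horizontal axis); filled circles have Y-linked reads. The circles run from -0.17 in DA replicate 4 to 0.10 in control replicate 3, and the crosses stay between -0.02 and 0.02. Scaling leaves the crosses, a mean over many genes, little room to move.

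The sets of libraries with and without Y-linked reads gave different medians for the whole family and a like direction for the called members. In the 6 libraries without such reads, 13 members were lower and 5 higher (6.13% and 2.36%, against 6.74% and 4.89% of all tested genes), and the median was 0.01, equal to that of all tested genes there (0.01). In the 6 with them the median was -0.12 (all genes, 0.02) and 0 members passed, as 0 of 14517 genes did by edgeR in that set. An unadjusted p under 0.05 was seen in 13 members there, a count not made over all tested genes. The 27 called members had the same sign in both sets, but these libraries had also chosen them, so this is no independent check. By the test of interaction 0 members differed between the sets, and 0 of all tested genes. At an unadjusted p under 0.05 in that test were 13 of the 212 members and 1137 of the 14517 tested genes. With Y-linked reads as a term, 15 members were lower and 2 higher (7.08% and 0.943%, against 3.94% and 3.78% of all tested genes).

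**Figure D4:**
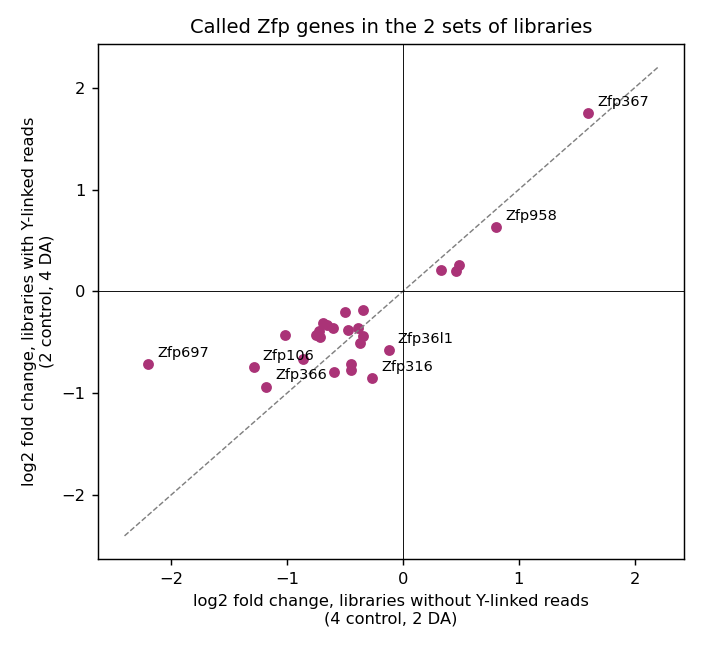
Log2 fold change, DA over control, of the 27 called Zfp genes in the libraries without Y-linked reads (horizontal axis; 4 control, 2 DA) and with them (vertical axis; 2 control, 4 DA); the dashed line marks equal values. Zfp697 lies far from the line (-2.20 and -0.71), Zfp366 (-1.18 and -0.93) and Zfp367 (1.60 and 1.75) near it.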

How the data were processed

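RNA of 12 lung samples was sequenced. Per the submitters' processing notes, HISAT2 2.2.1, HTSeq 2.0.2 and the build mRatBN7.2 were used; whether counting used strand, which reads were filtered and which annotation release served are not given in the sources used here. The deposited table holds raw read counts per Ensembl gene, and FPKM values that the authors derived from them; each FPKM equalled the count scaled by the deposited gene length and library total. Counts were analysed in R 4.3.3 with edgeR 4.0.16: filterByExpr (14517 genes), TMM scaling and the quasi-likelihood F test with a single term for group (two-sided), Benjamini-Hochberg adjustment over all tested genes, threshold 0.05. The biological coefficient of variation was 31.0%. Within-set and left-out fits kept the same genes. A count of 0 allows up to 3 reads, 0.184 to 0.219 CPM by library, for counting error only. The fit was tested on simulated data with known folds. The labels do not state that each library is a separate rat, so p-values measure the spread between these samples.

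The members and all gene lists were chosen with earlier results of these data known. Named members were the 10 lowest and 10 highest called (all 5 of the higher), 27 fixed names where present as members (21), the 3 most abundant, the 2 nearest each side of the level threshold, and the 2 called genes of smallest adjusted p per list, of which 1 is not reported here. Of the fixed names, 5 matched no line and were not analysed here. Alternatives were DESeq2 1.42.0, limma 3.58.1 on log2(FPKM + 0.5), with 0.1 and 1 as offsets, and with voom quality weights, other scaling and filters, length trend removal, score terms and left-out libraries. Promoters came from RefSeq tables of another build, GRCr8, and were used for sequence and gene order only.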

Additional observations from a re-analysis of the deposited data

Results flagged for a closer look

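Of 70 groups of 6 values examined (35 named members, control and DA), 6 held a library far from the others by Dixon's test at the 95% level; chance flags about 1 group in 20. In DA replicate 2, Zfp366 stood at 6.64 FPKM against 3.93 to 4.72 in the other DA libraries. In DA replicate 3, Zfp394 stood at 5.43 against 4.32 to 4.66. In DA replicate 4, Zfp217 stood high at 15.2 against 7.66 to 9.89, and Zfp503 low at 9.56 against 19.7 to 24.01. In control replicate 1, Zfp36l1 stood at 146 against 113 to 123, and in control replicate 4, Zfp451 stood at 6.31 against 5.43 to 5.73. Without control replicate 1 the log2 fold change of Zfp36l1 was -0.32 and was not called (adjusted p = 0.0831).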

How the results depend on the processing

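The main counts were 22 members lower and 5 higher, with a median log2 fold change of -0.05. Members lower numbered 13 within the libraries without Y-linked reads, 0 within those with them and 5 with the cell cycle score as a term. Members higher numbered 2 with no filter, in limma with each of the 3 FPKM offsets (0.1, 0.5 and 1), with Y-linked reads as a term and at a control level of at least 2 FPKM. They numbered 3 with the cell cycle term, 0 within the libraries with Y-linked reads and 9 under voom with quality weights. Under voom 4.25% of the members were higher, beside 14.0% of all tested genes. The median was 0.022 with the cell cycle term. Leaving out each library gave 14 to 26 lower, 1 to 6 higher and a median of -0.09 to -0.04. Without control replicates 1 to 6 in turn the number higher was 3, 3, 1, 1, 1 and 2, without DA replicates 1, 5 and 6 it was 2, 3 and 1, and without DA replicate 1 the number lower was 14. Choosing members by the mean of all 12 libraries gave 21 lower and 5 higher of 214, and by the DA mean 20 and 5 of 212. Over the full range of the members, 9.19% of other genes were lower. Removal of the length trend gave 23 lower and 7 higher. The cause of these shifts was not tested. Among named members 0 called results changed sign.

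The replicate numbers were not shown to pair the libraries: same-numbered libraries deviated together with correlations of -0.26 to 0.30 across genes, and 3 of 6 control libraries correlated best with their own number. With the replicate block, 15 members were lower and 1 higher (median -0.06). These were 7.08% and 0.472%, against 5.21% and 4.66% of all tested genes. Low read counts limit members near the threshold, such as Zfp235 with 24 to 66 reads per library.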
